A study of Mus musculus with 6 samples.

Results

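The miR-29 family is a group of microRNAs (miRNAs), short RNAs that lower the output of messenger RNAs to which they base-pair. Its members here are miR-29a, miR-29b and miR-29c, taken by name from a mouse quantitative PCR panel. They are 3 of 380 named miRNAs on the panel and 3 of the 123 that gave a threshold cycle (Ct) in all 6 samples. The RNA was that of exosomes, vesicles shed by cells, isolated from the serum of mice at 2 weeks after ACLT. ACLT is read here as anterior cruciate ligament transection, surgery that destabilises the knee and leads to osteoarthritis. The 3 Vehicle samples came from mice given vehicle, and the 3 OCExoInhib samples came from mice given OCExoInhib after the same ACLT. OCExoInhib is not spelled out in the labels; from the known study it is an agent against exosome release by osteoclasts, the cells that resorb bone. No strain, age, sex, dose or route was given in those labels. The design text speaks of pooling exosomal miRNA from 3 mice per group, and it does not state whether a sample is 1 mouse or 1 run of such a pool. The p-values below thus cover the spread among these 6 samples alone, and that spread may be technical.

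As background, miR-29 miRNAs are best known for repressing collagens, among them Col1a1, Col1a2 and Col3a1, together with elastin and other matrix proteins, so that low miR-29 accompanies fibrosis in several organs. In bone, miR-29 is known to repress osteonectin (Sparc) in osteoblasts, the cells that form bone, and in mouse osteoclast precursors it has been described as promoting commitment to the osteoclast lineage. The panel measured miRNAs alone. Collagens and other targets of the family were not measured here, so the name of the family as a regulator of collagen and osteoclasts was not tested.

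The members are shown first because they share the part of the sequence that selects targets and differ at few other bases, which bears on how separately the assays can read them. The sequences are those of the deposited panel, are written 5′ to 3′, and equal the RefSeq entries miR-29a-3p, miR-29b-3p and miR-29c-3p. Capitals mark the seed, bases 2 to 8.
miR-29a: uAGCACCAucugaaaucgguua
miR-29b: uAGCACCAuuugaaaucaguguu
miR-29c: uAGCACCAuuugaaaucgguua
All 3 had the seed AGCACCA, and 0 other miRNAs of the 380 on the panel had it. Counted from the 5′ end, miR-29a and miR-29c differed by 1 substitution over 22 positions, C10U from miR-29a to miR-29c. miR-29c and miR-29b differed by 3 substitutions, G18A, U21G and A22U, and by 1 extra base at the 3′ end of miR-29b. miR-29a and miR-29b differed by these and C10U, 4 in all. The GC content was 40.9% in miR-29a, 34.8% in miR-29b and 36.4% in miR-29c, against a median of 45.5% over the panel. The 3′ end of miR-29b holds AGUGUU, a hexamer known from work on nuclear import of this miRNA. The letters AGUGUU, searched on the miRNA strand, occurred in 4 of the 380 panel miRNAs (1.1%) and in neither miR-29a nor miR-29c. The short motifs GGAG and CCCU, which have been described in miRNAs sorted into exosomes, were in 0 of the 3 members, in 25 (6.6%) and 37 (9.7%) of the panel, respectively.

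The family is made from 4 genes in 2 pairs, and miR-29b is a product of both pairs. In GRCm38.p6, the build of the RefSeq table, Mir29a lies at chr6:31062660-31062747 and Mir29b-1 at chr6:31063023-31063093, both on the minus strand with 275 bases between the hairpins. Mir29b-2 at chr1:195037040-195037120 and Mir29c at chr1:195037547-195037634 lie on the plus strand with 426 bases between them. The chromosome 1 pair lies within the span of the long noncoding RNA gene A330023F24Rik, and the nearest protein-coding gene to Mir29c is Cd46, at 1337 bases. The chromosome 6 pair overlaps no other RefSeq gene of the table, and its nearest protein-coding gene is Klf14, at 103670 bases from Mir29a. Exons of these genes were not analysed here. The hairpins show that all 4 genes carry the measured miRNA on the 3′ arm, in capitals.
Mir29a: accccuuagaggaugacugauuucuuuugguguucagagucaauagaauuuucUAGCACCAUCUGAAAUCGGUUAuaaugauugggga
Mir29b-1: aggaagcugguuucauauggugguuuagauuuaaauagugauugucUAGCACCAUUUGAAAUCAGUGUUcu
Mir29b-2: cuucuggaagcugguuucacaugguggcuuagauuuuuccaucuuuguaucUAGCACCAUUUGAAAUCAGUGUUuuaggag
Mir29c: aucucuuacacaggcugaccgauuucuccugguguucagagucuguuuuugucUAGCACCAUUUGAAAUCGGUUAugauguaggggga
The mature miR-29b is the same from both hairpins, so the assay cannot tell its chromosome 1 copy, made beside miR-29c, from its chromosome 6 copy, made beside miR-29a.

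In serum exosomes miR-29a was among the first miRNAs to amplify in both groups, miR-29b followed, and miR-29c was late in Vehicle samples and much earlier in OCExoInhib samples. The earlier the cycle, the higher the level, by about 1 doubling per cycle. miR-29c rose with OCExoInhib by 5.68 on the log2 scale, and neither miR-29a nor miR-29b passed the test. Ct increased from miR-29a to miR-29b to miR-29c in 6 of 6 samples. Assays can differ in efficiency, so this is an order of cycles and not of molecule numbers.

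The raw Ct of miR-29c, the member whose gene lies with Mir29b-2, was 35.78, 35.47 and 36.69 in Vehicle samples 1, 2 and 3. In OCExoInhib samples 1, 2 and 3 it was 29.98, 29.41 and 29.32. Every OCExoInhib value was earlier than every Vehicle value, and the groups did not overlap. All 3 Vehicle values lay at Ct 35 or later, where few template molecules are left to measure, and 0 OCExoInhib values did. Among the 123 measured miRNAs ordered by Ct, miR-29c stood at places 113, 111 and 116 in the Vehicle samples and at 67, 59 and 65 in the OCExoInhib samples. It thus moved from the latest measured miRNAs to the middle of the order.

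The raw Ct of miR-29a was 20.55, 20.92 and 21.46 in Vehicle samples 1, 2 and 3, and 19.94, 23.53 and 20.21 in OCExoInhib samples 1, 2 and 3. OCExoInhib samples 1 and 3 lay just before the Vehicle samples and OCExoInhib sample 2 lay after all of them, so the groups overlapped. By Ct it held places 1, 2 and 4 in Vehicle and 2, 6 and 2 in OCExoInhib samples. The raw Ct of miR-29b was 24.89, 24.45 and 25.81 in Vehicle samples, and 23.96, 25.68 and 25.22 in OCExoInhib samples. These groups overlapped as well, with the OCExoInhib values on both sides of the earliest Vehicle value. By Ct miR-29b held places 17 to 32 in Vehicle and 16 to 27 in OCExoInhib samples.

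**Figure D1:**
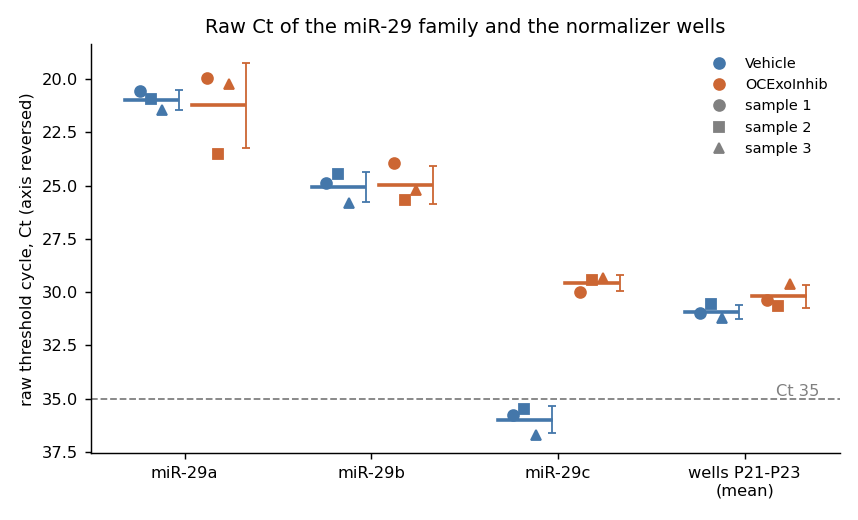
Raw threshold cycle (vertical axis, reversed so that higher levels are up) of miR-29a, miR-29b, miR-29c and the mean of wells P21 to P23 in 3 Vehicle and 3 OCExoInhib samples, with each sample as a point, the mean as a line and the SD as an error bar. Vehicle values of miR-29c lie beyond the dashed line at Ct 35 and the OCExoInhib values lie near 29.6, while the groups of miR-29a and miR-29b overlap.

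Levels were then set relative to wells P21 to P23, the wells that the deposited normalization subtracts. Their mean Ct was 30.9 ± 0.318 in Vehicle samples, against 30.2 ± 0.531 in OCExoInhib samples (SD, n = 3 per group). The log2 level, the negative of the deposited normalized value, was −5.06 ± 0.385 for miR-29c in Vehicle samples, against 0.62 ± 0.517 in OCExoInhib samples (SD, n = 3 per group). In single samples it was −4.79, −4.90 and −5.50 in Vehicle, and 0.37, 1.22 and 0.28 in OCExoInhib samples. All Vehicle levels thus lay far below the wells and all OCExoInhib levels slightly above them. For miR-29a the level was 9.94 ± 0.439 in Vehicle samples, against 8.97 ± 1.70 in OCExoInhib samples (SD, n = 3 per group). For miR-29b it was 5.87 ± 0.421 in Vehicle samples, against 5.24 ± 1.04 in OCExoInhib samples (SD, n = 3 per group).

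Of all 115 miRNAs tested, 27 passed the threshold of 0.05 on limma's Benjamini-Hochberg adjusted p in either direction (23.5%), 7 of them higher in OCExoInhib (6.09%) and 20 lower (17.4%). All 3 members were tested, and 1 of 3 passed. The log2 difference of miR-29c, OCExoInhib minus Vehicle, was 5.68 (SE 0.75, 95% interval 4.09 to 7.27, limma adjusted p 3.63e-05), a 51.4-fold higher level. All 3 OCExoInhib samples lay above all 3 Vehicle samples, as they did for 7 of the 115 tested miRNAs (6.09%), and in either direction the groups did not overlap for 26.1%. Only 4 tested miRNAs had a larger rise. An OCExoInhib level near the wells was not particular to miR-29c. Mean OCExoInhib log2 levels were 0.63 for miR-501-3p, 0.72 for miR-127 and 0.87 for miR-140, which passed as rises. They were −0.07 for miR-21 and −0.02 for miR-148a, which passed as falls. miR-107 also fell and lay lower, at −2.31. These examples were picked after their values were seen, and why levels lay there was not tested. In the authors' deposited table the ratio of Vehicle over OCExoInhib was 0.019 for miR-29c, and 4 of its 123 miRNAs had a lower ratio.

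The size of the miR-29c rise rests on late Vehicle cycles. With every Ct above 35 set to 35, the difference was 4.70, or 26.0-fold, and it still passed (limma adjusted p 0.000106, against 2.28e-08 to 0.0123 over all settings that could test it). miR-29c met the filter, a Ct under 35 in at least 3 samples, through its OCExoInhib samples alone. A miRNA in that position had to differ, and the same held for miR-28 and miR-501-3p, named after their values were seen, which with miR-29c were all called.

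miR-29a differed by −0.97 on the log2 scale (SE 0.89, 95% interval −2.86 to 0.92, limma adjusted p 0.866). miR-29b differed by −0.63 (SE 0.79, 95% interval −2.32 to 1.06, limma adjusted p 0.866). These intervals include no change, falls of several-fold, and rises of up to 0.92 and 1.06 on the log2 scale, respectively. The values do not show that these members stayed the same. The median difference of all tested miRNAs was −0.54, close to the value of miR-29b, and 91 of 115 differences were below 0. In the authors' deposited table the ratios of Vehicle over OCExoInhib were 1.962 for miR-29a and 1.544 for miR-29b.

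The value of miR-29a turned on OCExoInhib sample 2. Without that sample the difference was −0.04 (limma adjusted p 0.988), and without OCExoInhib sample 1 it was −1.69 (limma adjusted p 0.349). The difference of miR-29b was −0.20 without OCExoInhib sample 3 and −1.20 without OCExoInhib sample 1. The miR-29c difference moved less, from 5.39 without OCExoInhib sample 2 to 5.85 without OCExoInhib sample 3. Among the 88 miRNAs that did not pass, 1 had a lower difference than miR-29a. The lowest was −0.998, whereas the smallest fall that passed was −2.82 and the smallest rise 4.79, so that no difference lay between −2.82 and −0.998 or between 0.60 and 4.79.

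**Figure D2:**
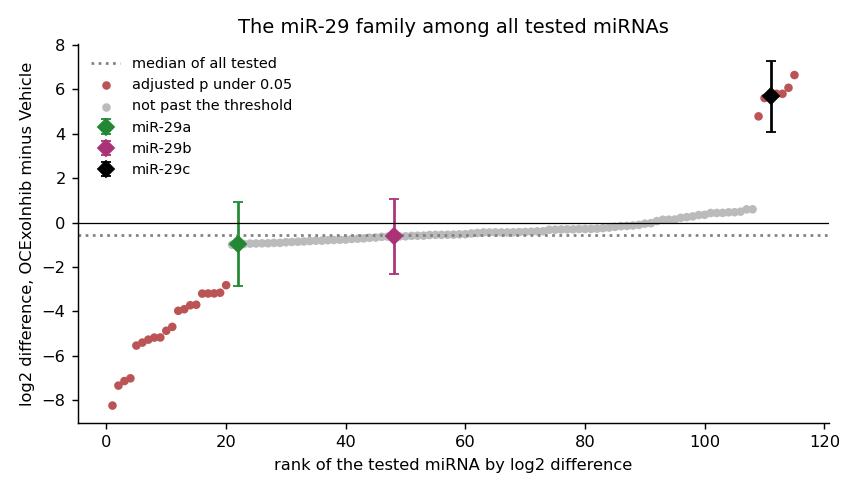
Log2 difference, OCExoInhib minus Vehicle (vertical axis), of the 115 tested miRNAs by rank (horizontal axis), with the 3 members as diamonds and their 95% intervals as bars, and miRNAs past an adjusted p of 0.05 in red. miR-29c stands among the 7 rises at 5.68, and miR-29a and miR-29b lie in the grey run of miRNAs that did not pass, miR-29a at its lower end.

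The direction for miR-29a and miR-29b depended on the normalization. In raw Ct, without any normalizer, miR-29a was 0.248 cycles later and miR-29b 0.098 cycles earlier in OCExoInhib samples, and the mean Ct of wells P21 to P23 changed by −0.725 cycles. Global mean normalization gave log2 differences of 0.21 for miR-29a and 0.55 for miR-29b, and centring on sample medians gave 1.57 and 1.92. Relative to the median of all tested miRNAs, which these scalings move alike, miR-29a was at −0.43, miR-29b at −0.09 and miR-29c at 6.23. The raw Ct of miR-29c was 6.41 cycles earlier in OCExoInhib samples, and its rise kept its sign under each of the normalizations tried.

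**Figure D3:**
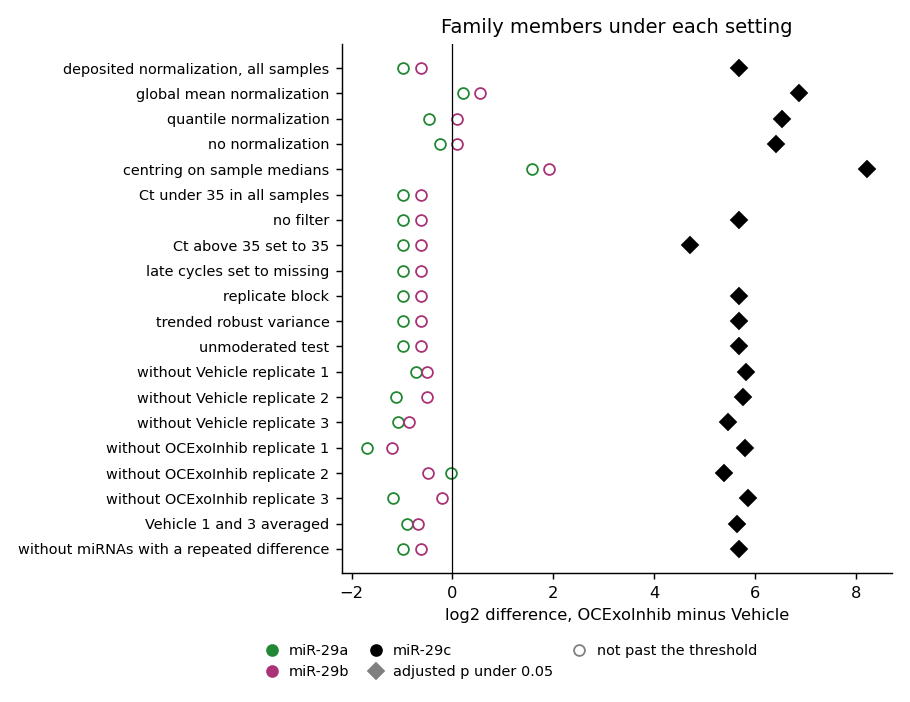
Log2 difference, OCExoInhib minus Vehicle (horizontal axis), of miR-29a, miR-29b and miR-29c under the deposited normalization and each alternative setting (vertical axis), with filled diamonds for an adjusted p under 0.05 and open circles otherwise. miR-29c lies between 4.70 and 8.23 wherever it could be tested, and miR-29a and miR-29b lie on either side of 0.

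Differences between 2 members within a sample need no normalizer, and they ask whether the members responded unequally. The Ct gap between miR-29c and miR-29a was 15.2, 14.5 and 15.2 cycles in Vehicle samples 1, 2 and 3, and 10.04, 5.88 and 9.12 cycles in OCExoInhib samples 1, 2 and 3. Every OCExoInhib gap was smaller than every Vehicle gap. The level of miR-29c relative to miR-29a was thus 6.66 higher on the log2 scale in OCExoInhib samples (exact two-sided permutation p 0.1, adjusted 0.15 over the 3 pairs). That p is the smallest this test can give for 3 samples against 3, so the permutation test cannot pass 0.05 here.

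The gap between miR-29c and miR-29b was 10.89, 11.02 and 10.88 cycles in Vehicle samples, a range of 0.133 cycles. In OCExoInhib samples it was 6.02, 3.73 and 4.11 cycles, a range of 2.29 cycles. These groups did not overlap either, and miR-29c was 6.31 higher relative to miR-29b (exact two-sided permutation p 0.1, adjusted 0.15). Both gaps with miR-29c rest on its late Vehicle cycles, so they are not a separate check of its rise. With every Ct above 35 set to 35, miR-29c was 5.329 higher relative to miR-29b and 5.675 higher relative to miR-29a. The gap between miR-29b and miR-29a was 4.34, 3.53 and 4.35 cycles in Vehicle samples, and 4.02, 2.15 and 5.01 cycles in OCExoInhib samples. These values overlapped, and the change of 0.35 in the level of miR-29b relative to miR-29a was smaller than the spread between samples (exact two-sided permutation p 0.8, adjusted 0.8). It was −0.44 without OCExoInhib sample 2. miR-29a and miR-29c, which differ by 1 base, were therefore the pair with the widest gap in both groups. Whether each assay reads its own member alone was not tested.

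**Figure D4:**
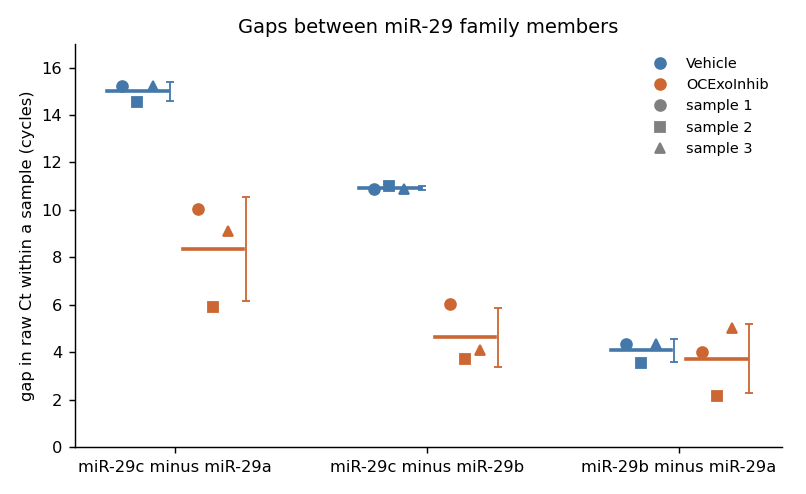
Gap in raw Ct (vertical axis, cycles) between members of each pair within a sample, for 3 Vehicle and 3 OCExoInhib samples, with the mean as a line and the SD as an error bar. Both gaps that involve miR-29c are smaller in every OCExoInhib sample than in any Vehicle sample, and the gaps between miR-29b and miR-29a overlap.

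The spread among samples differed between members. In Vehicle samples the SD of the log2 level was 0.385 to 0.439 for the 3 members, against a median of 0.879 over the 115 tested miRNAs. In OCExoInhib samples it was 1.70 for miR-29a, 1.04 for miR-29b and 0.517 for miR-29c, against a median of 0.876. For miR-29a, 105 of the tested miRNAs had a smaller SD in the OCExoInhib samples. Its Ct in OCExoInhib sample 2 was over 3 cycles later than in the other OCExoInhib samples, and 8 of the 115 tested miRNAs were over 2 cycles later there than in both others.

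Ct differences between samples of a group were shared between miRNAs in 2 ways that touch the family, both noticed after the values were seen. Vehicle sample 1 minus Vehicle sample 3 was −0.915 cycles for miR-29a, −0.920 for miR-29b and −0.914 for miR-29c. These 3 were the only ones of the 123 measured miRNAs within 0.01 cycles of the miR-29a value, in a distribution with a median of 0.306 that ran from −5.68 to 3.45. In the OCExoInhib samples the members did not share a difference. OCExoInhib sample 1 minus sample 2 was −3.59 cycles for miR-29a, −1.72 for miR-29b and 0.570 for miR-29c.

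The difference of 0.570 cycles for miR-29c recurred, within 0.0015 cycles, in 9 other miRNAs. These were let-7e, miR-145, miR-151-3p, miR-194, miR-21, miR-30a, miR-34a, miR-378 and miR-501-3p, all called by limma, and with miR-29c they made 3 rises and 7 falls. For miR-151-3p, miR-145 and let-7e the raw Ct itself was identical in every OCExoInhib sample. It was 31.087, 30.517 and 29.201 in OCExoInhib samples 1, 2 and 3. The Ct values of miR-29c were not among these. Differences shared by at least 5 miRNAs were counted over all 123 measured miRNAs. Between Vehicle samples 1 and 3, 17 miRNAs shared one, and 0 did in the other Vehicle pairs. For OCExoInhib the number was 10 for samples 1 and 2, 10 for samples 1 and 3, and 5 for samples 2 and 3. A miRNA can count in more than 1 pair. In all, 22 of the 27 called miRNAs, 3 of the 7 rises among them, carried a difference that at least 5 miRNAs shared between a pair of samples. Neither miR-29a nor miR-29b did. Of all miRNAs that carried such a difference, only miR-465b-5p, named after its values were seen, was not called (limma adjusted p 0.866). Among all 115 tested miRNAs 23.5% were called, so carrying a shared difference and being called nearly coincided. How separate samples came to hold the same difference, and separate wells the same Ct, was not tested.  Without OCExoInhib sample 1 the miR-29c difference was 5.81 and without OCExoInhib sample 2 it was 5.39, and both passed (limma adjusted p 0.000626 and 4.50e-05). Each of these fits keeps 1 of the samples that share the difference, so they cannot test whether the sharing matters.

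**Figure D5:**
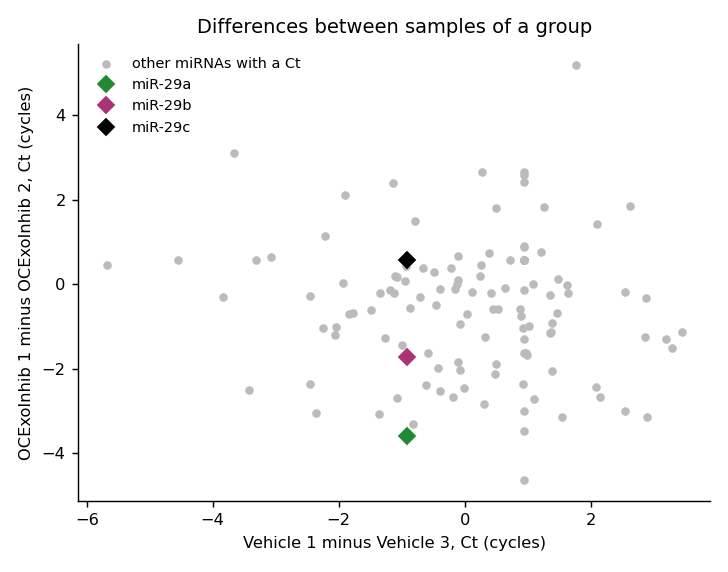
Ct of Vehicle sample 1 minus Vehicle sample 3 (horizontal axis, cycles) against OCExoInhib sample 1 minus OCExoInhib sample 2 (vertical axis, cycles) for the 123 measured miRNAs, with the members as diamonds. The 3 members stand in a vertical line near −0.915 and are spread from −3.59 to 0.570 on the vertical axis.

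The miRNAs whose levels followed each member most closely over the 6 samples were taken as the 3 with the highest Pearson correlation. These correlations are descriptions over samples that share 1 normalizer and 2 groups. For miR-29c they were miR-501-3p (r = 0.979), miR-127 (0.968) and miR-140 (0.951), all called higher by limma as well. miR-501-3p had raw Ct values of 35.81, 35.88 and 39.12 in Vehicle and 30.03, 29.46 and 29.21 in OCExoInhib samples, late in one group and near Ct 30 in the other like miR-29c. miR-140, a miRNA of cartilage, had Ct values of 35.95, 36.74 and 34.87 in Vehicle and 29.35, 29.35 and 29.28 in OCExoInhib samples. All 3 thus shared with miR-29c a step between the groups. Choosing by correlation with miR-29c, whose values are mostly such a step, favoured this.

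For miR-29a the most alike were miR-34c (r = 0.944), let-7d (0.925) and miR-200b (0.907). miR-34c had Ct values of 22.75, 22.76 and 23.57 in Vehicle, and 21.77, 25.08 and 21.28 in OCExoInhib samples. let-7d had 22.80, 22.54 and 22.50 in Vehicle, and 21.50, 24.34 and 21.39 in OCExoInhib samples. All of these were latest in OCExoInhib sample 2, as miR-29a was, a likeness that the choice by correlation favoured too. For miR-29b they were miR-92b (r = 0.880), miR-34b-5p (0.879) and miR-196b (0.878). Between members r was 0.602 for miR-29a and miR-29b, −0.504 for miR-29a and miR-29c and −0.421 for miR-29b and miR-29c.

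Other miRNAs known for the roles of the family moved in part. Of 7 other miRNAs listed as promoting osteoclast differentiation, 4 had a Ct and were tested, and 4 fell, miR-148a, miR-21, miR-214 and miR-133a, where 17.4% of all tested miRNAs fell. They had a median log2 difference of −4.04 against −0.54 over all tested miRNAs. miR-29c, described as acting the same way on osteoclast precursors, differed in the opposite direction. All 4 carried a shared Ct difference, and miR-214 and miR-133a each missed the threshold in 8 settings, with limma adjusted p of 0.122 and 0.121 without OCExoInhib sample 1. Of 6 tested members of a list that restrains osteoclast differentiation, miR-34a rose (log2 difference 6.07, SE 1.01, limma adjusted p 0.000193) and 5 did not pass, with a list median of −0.20, where 6.09% of all tested miRNAs rose. miR-34a carried a shared Ct difference too, and it did not pass with the unmoderated test (adjusted p 0.0649). Of 14 tested miRNAs known from collagen synthesis and fibrosis, 3 fell, 0 rose and 11 did not pass, with a median of −0.63 against −0.54 over all tested miRNAs, 17.4% of which fell. Counts this small do not set the list apart from the other miRNAs. The 3 were miR-21, which is known to promote fibrosis (−4.87, SE 0.80), miR-214 (−3.20, SE 0.94) and miR-133a, which restrains connective tissue growth factor (−2.82, SE 0.84), and they also stand in the first list. Among the 11 were miR-30c (−0.85, SE 1.04) and miR-26a (−0.74, SE 1.09). The lists were drawn up with earlier results of these data known, so their counts are no independent evidence.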

How the data were processed

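Per the labels' protocols, column-purified exosomal RNA went through reverse transcription and SYBR Green PCR with a commercial mouse exosome panel, for 40 cycles on a ViiA7. The deposited raw table holds Ct per well, per the file headers. The deposited normalized table is on a log2 scale and equals raw Ct minus the mean of wells P21, P22 and P23 in every sample; the header speaks of a spike-in control. The fold table holds the authors' ratio of Vehicle over OCExoInhib. No source used here gave the fluorescence threshold. The tables held 0 further columns of per-sample values.

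Of 384 wells, 123 named miRNAs had a Ct in all samples and 0 in only some. Tests covered the 115 with a Ct under 35 in at least 3 samples. The comparison of groups used R 4.3.3 and limma 3.58.1 (lmFit, eBayes, two-sided, Benjamini-Hochberg over the 115), checked on simulated data. Pairs of members were compared with exact permutation tests in scipy 1.17.1. Depth on such a panel is set by cycle number, and the 3 samples a group limit the precision. Named miRNAs are the members, the 3 most correlated with each, those sharing the seed, and list members past the threshold; others are said to be chosen after their values were seen, and list miRNAs given as not passing were chosen likewise. Members and lists were chosen with earlier results of these data known. The alternatives were other normalizations, filters, treatments of late cycles, variance models, a replicate block and samples left out.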

Additional observations from a re-analysis of the deposited data

How the results depend on the processing

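The rise of miR-29c kept its direction and passed in all 17 settings that could test it. The setting without miRNAs that carry a shared difference kept miR-29c, which carries one, so that setting could not test whether the sharing matters. Because miR-29c met the filter through its OCExoInhib samples alone, these passes are not separate evidence of a rise. A Ct under 35 required in all samples, and late cycles set to missing, left no test of miR-29c, because its Vehicle values are late. Differences of the other members turned above 0 with global mean normalization (0.21 for miR-29a, 0.55 for miR-29b) and centring on sample medians (1.57 and 1.92), and for miR-29b with quantile normalization (0.089) and no normalization (0.098). The change in level of miR-29b relative to miR-29a was −0.44 without OCExoInhib sample 2. Leaving out each sample gave −1.69 to −0.04 for miR-29a, −1.20 to −0.20 for miR-29b and 5.39 to 5.85 for miR-29c. It gave 5.42 to 7.50 for miR-29c relative to miR-29a, 5.87 to 7.01 for miR-29c relative to miR-29b, −0.44 to 0.99 for miR-29b relative to miR-29a, and 24 to 27 changed miRNAs.

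The count of 27 changed miRNAs became 16 with quantile normalization (7 higher, 9 lower), 67 with centring on sample medians (56 higher, 11 lower), 15 with the unmoderated test (4 higher, 11 lower), and 6 without miRNAs that carry a shared difference, members kept (5 higher, 1 lower). The last takes out miRNAs by their shared difference, and 22 of the 27 called miRNAs carried one. That count therefore had to fall and is no separate check of the calls. miR-29c carried one as well but was kept as a member, and it is among the 5 higher. Why the called miRNAs carried it, and the cause of the other changes in count, was not tested. Global mean normalization gave 21 (7 higher, 14 lower). The deviations of samples 1, 2 and 3 from their group means correlated by 0.0587, 0.0177 and 0.117 between groups, which did not bear out a pairing by number. With the number as a replicate block miR-29c still differed by 5.68 (limma adjusted p 0.0084), 25 miRNAs changed, and no member changed its side of the threshold. OCExoInhib sample 2 did not correlate best with its own number.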
